A study of Mus musculus with 3 samples.

Results

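The EID and CITED proteins are small regulators that bind the acetyltransferases EP300 and CREBBP, and their RNA was followed in cultured mouse sensory neurons given semaphorin 3E (SEMA3E). The set holds 9 genes: Eid1, Eid2, Eid2b and Eid3, then Cited1, Cited2 and Cited4, then Ep300 and Crebbp. They were chosen by name from the 30142 genes that have a probe set with a single symbol, and each has 1 probe set. Eid3 and Cited2 were picked because their values differed with SEMA3E, so their differences are given as a description and not as a finding.

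Dorsal root ganglion neurons came from male ICR mice, an outbred strain, aged 8 to 10 weeks. They were kept for 72 hours in 1 of 3 media, and total RNA from each medium was measured on 1 array. The control medium was DMEM with the B27 supplement. To this the second medium added recombinant SEMA3E at 1 µg/ml, a secreted guidance protein that signals through plexin D1. The third added SEMA3E and a SEMA3E-blocking IgG, each at 1 µg/ml. All 3 media share DMEM and B27, none of them held the IgG alone, and the number of mice behind each array is not stated in the labels used here. With 1 array per medium no difference has an error or a test.

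EP300 and CREBBP are large, closely related coactivators. Transcription factors such as CREB, HIF1A and the SMADs bring them to genes, where they acetylate histones and other proteins. EID proteins bind them and hold back their activity. CITED proteins carry an acidic tail that binds a zinc-containing domain of EP300 and CREBBP, which lets them assist some factors, such as the AP-2 family, and compete with others, such as HIF1A.

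The values are intensities in array units. They ran from 6.12 to 496402 over 65956 probe sets, with medians of 44.5 (control), 45.0 (SEMA3E) and 44.5 (SEMA3E with IgG). A floor of 43.7 units, or 5.48 as log2(value + 1), was set at the 95th percentile of 492 vomeronasal receptor genes, which this tissue is not known to use, and 17653 genes had a mean at or above it. In 74.9% of those genes all 3 arrays held the same value. Many values recur across probe sets as well: 68.3% of all probe sets, and 54.8% of the genes above the floor, shared their control value with at least 1 other probe set. An identical value therefore does not show equal RNA, since a summary of many probes into 1 value can leave a small difference out.

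Of the 9 genes, 8 lay above the floor. The exception was Cited4, which held 20.3 units in every array, a value that 414 other probe sets also held in control medium. Eid3, Cited2, Ep300 and Crebbp had values that no other probe set shared, whereas the value of Eid2 was shared by 29 other probe sets and that of Cited1 by 16 in the control array.

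The region upstream of Cited2 is shown because Cited2 is the member lower with SEMA3E and because its promoter is known to respond to hypoxia. It is taken from RefSeq (build GRCm38.p6, chr10:17722978-17723277, plus strand) and runs from 250 bases before the start of the gene to 50 after it. Capitals mark the matches to the letters searched.

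Cited2: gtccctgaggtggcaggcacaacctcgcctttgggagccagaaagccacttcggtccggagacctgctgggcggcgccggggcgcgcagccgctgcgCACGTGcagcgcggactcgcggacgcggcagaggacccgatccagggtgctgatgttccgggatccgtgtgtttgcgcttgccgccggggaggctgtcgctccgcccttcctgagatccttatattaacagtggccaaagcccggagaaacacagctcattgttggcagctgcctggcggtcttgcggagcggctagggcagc

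The letters searched, on both strands, were ACGTG and GCGTG (the core read by HIF), TGACG (part of the site read by CREB), TGACNNNGC (the core read by NRF2) and TATAAA. In the window of Cited2 only ACGTG was found, once on each strand. The matches overlap in the palindrome CACGTG, which begins 153 bases before the start of the gene. ACGTG occurs in 19.6% of 32851 promoter windows of equal length, GCGTG in 32.4%, TGACG in 20.8%, TGACNNNGC in 12.4% and TATAAA in 13.6%. The window of Cited2 had 66.7% G and C, against a median of 52.7% over all windows. RefSeq windows were matched for 6 of the 9 genes, and Eid1, Eid2b and Eid3 had no entry. The window of Eid2 held 5 matches to GCGTG. Of 3 windows of Cited1, the first held 2 matches to GCGTG and 1 to TATAAA, the second 1 to ACGTG and 1 to TATAAA, and the third 1 to TGACG. Cited4, the relative below the floor, held 1 match each to GCGTG, TGACNNNGC and TATAAA. The windows of Ep300 and Crebbp, with 72.3% and 82.0% G and C, held none of the searched letters. Members with identical values thus held such letters too, and the matches describe letters only.

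Eid3 encodes an EID relative that can also take the place of the kleisin subunit in the SMC5/6 complex, a DNA repair and chromosome complex. Its intensity was 216 units in control medium, 370 with SEMA3E and 427 with SEMA3E and the blocking IgG. The control array was the lowest and the array with IgG the highest, so the value with the antibody lay further from control, not nearer to it. The log2 difference from control was 0.77 with SEMA3E (1.71-fold) and 0.98 with SEMA3E and IgG (1.97-fold). Between the SEMA3E arrays with and without IgG it was 0.20 (1.15-fold), which is 26.4% of the first step. Among all 17653 genes above the floor, Eid3 ranked 8 from the highest with SEMA3E against control, 2 from the highest with SEMA3E and IgG against control, and 276 from the highest between the arrays with and without IgG. Among the 12265 of these that are protein-coding the ranks were 1, 1 and 27. The ranks against control follow in part from the choice of the gene and from the shared control array.

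The other EID genes held identical values in all 3 arrays. Eid1, which binds the retinoblastoma protein as well as EP300 and restrains muscle differentiation, lay at 237 units (7.89 on the log2 scale). Eid2, which also dampens SMAD signals, lay at 92.2 units (6.54). Eid2b, the neighbour and close relative of Eid2 on chromosome 7, lay at 105 units (6.73). Eid3, which was picked because it differed, was thus the single EID gene whose value differed between any of the arrays. Identical values in all 3 arrays were held by 74.9% of all genes above the floor.

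**Figure D1:**
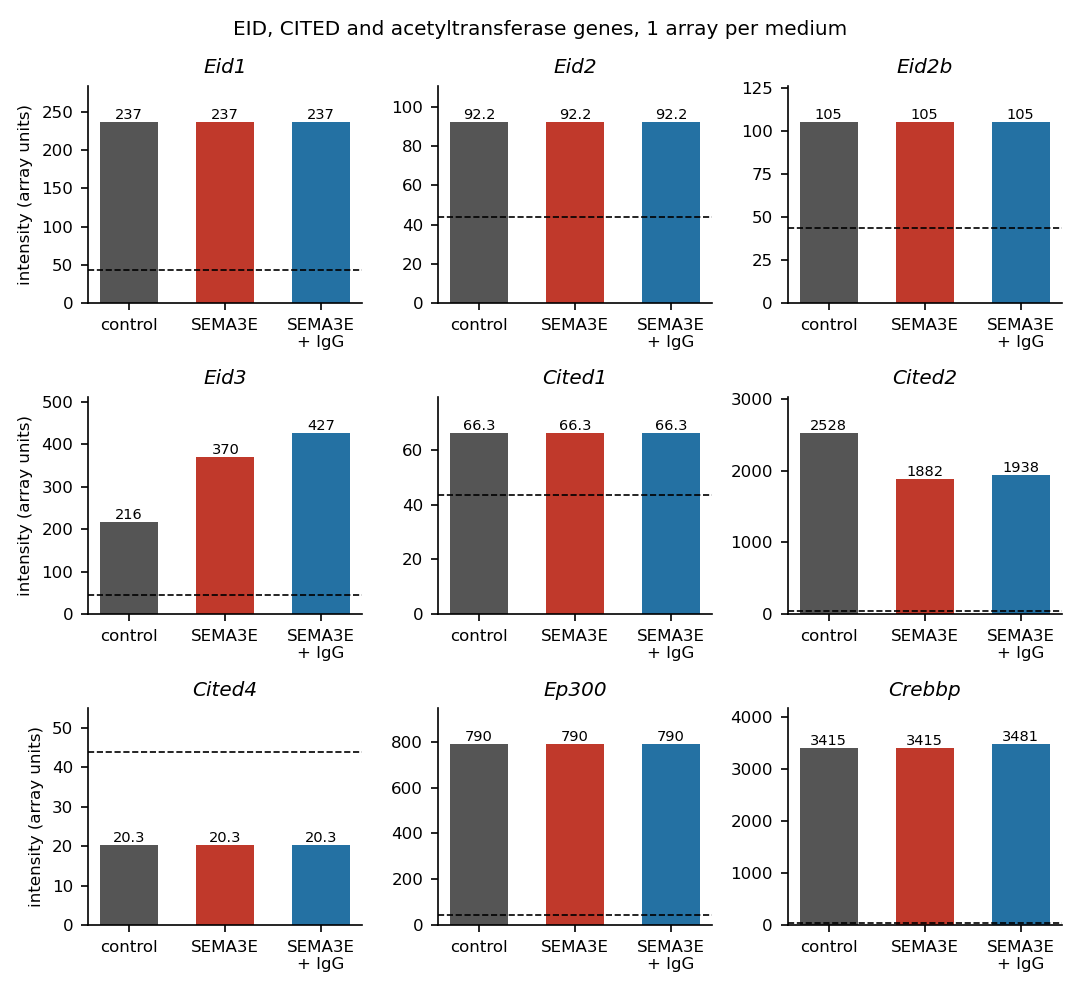
Intensity (array units, each panel with its own axis from 0) of the 9 genes in control medium (grey), SEMA3E (red) and SEMA3E with blocking IgG (blue), 1 array each; the dashed line is the floor of 43.7 units. Eid3 goes from 216 to 370 and 427 units and Cited2 from 2528 to 1882 and 1938, Crebbp is 3481 with IgG against 3415, and the other 6 genes hold the same value in all arrays.

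Eid3 lies inside the span of Txnrd1 on chromosome 10 in the RefSeq annotation. Txnrd1 encodes thioredoxin reductase, an enzyme that NRF2 induces. Its probe set read 3165 units in control medium, 3165 with SEMA3E and 3239 with SEMA3E and IgG. The value of the host gene was the same in the control and SEMA3E arrays, where Eid3 differed by 0.77, and was 0.03 higher on the log2 scale with IgG. Whether the probes of Eid3 also read RNA of Txnrd1 was not tested. Eid1 likewise lies inside Shc4, an adaptor gene, which read 183, 178 and 183 units in the order control, SEMA3E and SEMA3E with IgG. Among the nearest coding genes with a value, Cep152 beside Eid1, L3mbtl2 beside Ep300 and Trap1 beside Crebbp held identical values in all 3 arrays (47.2, 120 and 550 units). Among the other neighbours above the floor, the pseudogenes Gm14859 beside Cited1 and Gm5218 beside Ep300 were also identical. Gm22067, a small nuclear RNA gene that overlaps Ep300, read 114 units in control medium and 111 units in each of the others.

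Cited2 is the best known competitor of HIF1A for EP300, is itself induced in hypoxia, and is needed for heart, adrenal and neural tube development. Its intensity was 2528 units in control medium, 1882 with SEMA3E and 1938 with SEMA3E and IgG. Both arrays with SEMA3E lay below the control array and close to each other. The log2 difference from control was −0.43 with SEMA3E (percent change −25.6) and −0.38 with SEMA3E and IgG (percent change −23.3). With the IgG the value was 0.04 higher on the log2 scale than with SEMA3E alone, a return of 10.0% of the first step. Among all 17653 genes Cited2 ranked 35 from the lowest in SEMA3E against control, 69 from the lowest in SEMA3E with IgG against control, and 1125 from the highest between the arrays with and without IgG. Among the 12265 protein-coding genes the ranks were 11, 45 and 342. As for Eid3, the ranks against control follow in part from the choice of the gene and from the shared control array.

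The other CITED genes did not differ between arrays, as was so for 74.9% of all genes above the floor. Cited1, which was described first in melanocytes and assists SMAD and AP-2 factors, read 66.3 units in each (6.07 on the log2 scale, not far above the floor). Cited4, a further AP-2 and HIF partner, lay below the floor at 4.42. For Cited4 these arrays give no level that can be told from background.

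The acetyltransferases themselves differed little. Ep300 read 790 units (9.63 on the log2 scale) in all 3 arrays. Crebbp read 3415 units in control medium and with SEMA3E, and 3481 with SEMA3E and IgG, a log2 difference of 0.03 (1.02-fold). Between the control and SEMA3E arrays Ep300 and Crebbp held identical values, in a comparison where 18.6% of all genes above the floor differed. An identical value does not show equal RNA.

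The counts were set against all 17653 genes above the floor. Between SEMA3E and control, 2 of the 8 genes above the floor differed, 1 higher and 1 lower, where 18.6% of all genes differed (6.21% higher and 12.3% lower). Both also differed by at least 1.1-fold, against 3.74% of all genes, and by at least a ratio of 5 to 4, against 0.731%. At 1.5-fold Eid3 alone did, against 0.17%. The choice of Eid3 and Cited2 used this comparison, so nothing is read from these counts.

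Between SEMA3E with IgG and SEMA3E alone, 3 of 8 differed (Eid3, Cited2 and Crebbp, all higher with IgG), against 20.5% of all genes (10.2% higher and 10.3% lower). Eid3 was the single one at least 1.1-fold apart, against 4.76% of all genes. At a ratio of 5 to 4 and at 1.5-fold 0 of 8 differed, against 0.782% and 0.136%. Between SEMA3E with IgG and control, 3 of 8 differed, Eid3 and Crebbp higher and Cited2 lower, against 19.0% of all genes (7.59% higher and 11.4% lower). Eid3 and Cited2 passed 1.1-fold, against 4.55%, and a ratio of 5 to 4, against 0.884%, and Eid3 passed 1.5-fold, against 0.204%. The median difference was 0 in each comparison, both over the 8 genes and over all genes. Each array enters 2 of the 3 comparisons, so the counts are not independent of each other. Both comparisons with the IgG reuse an array of the comparison that Eid3 and Cited2 were picked from. Nothing is read from their counts either.

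**Figure D2:**
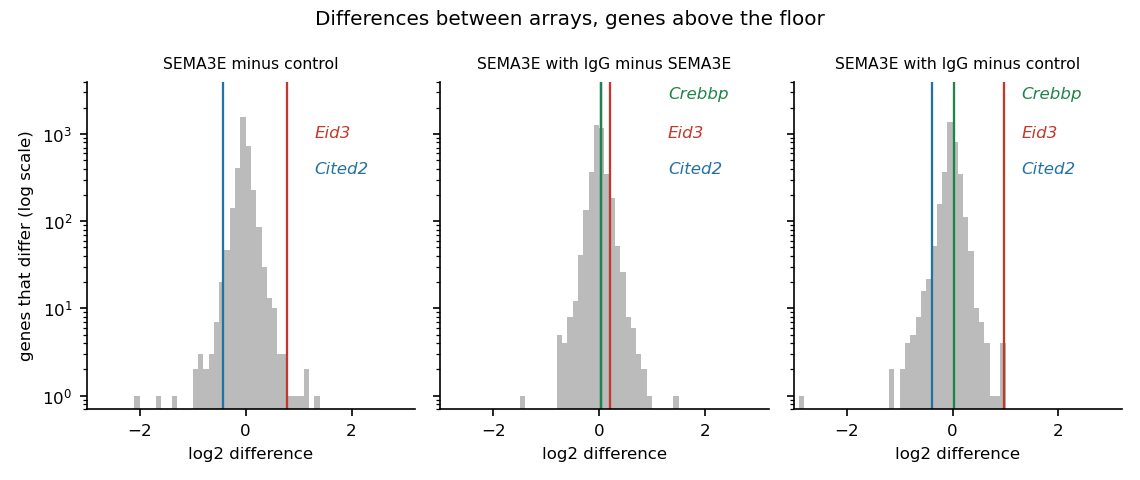
Number of genes (log scale) by log2 difference, in bins of 0.1, for the genes above the floor whose values differ between the arrays of each panel; lines mark Eid3 (red), Cited2 (blue) and Crebbp (green). Eid3 lies at 0.77, 0.20 and 0.98 and Cited2 at −0.43, 0.04 and −0.38 from left to right; Crebbp (0.03) covers Cited2 in the middle panel and is absent from the left one, where its values are identical.

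The members also differed in their pattern over the 3 arrays. In 7.79% of the genes above the floor all 3 arrays differed, and Eid3 and Cited2 were of this kind. The order of Eid3, lowest in control and highest with IgG, was held by 118 genes (0.668% of those above the floor). The order of Cited2, lowest with SEMA3E, then SEMA3E with IgG, then control, was held by 205 genes (1.16%). Crebbp belonged to the 6.56% of genes in which the control and SEMA3E arrays were identical and the array with IgG differed.

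The genes whose 3 values most resembled those of Eid3 were found by the distance between log2 values, each gene centred on its own mean. The nearest of 12264 protein-coding genes were Slitrk6, a neuronal membrane protein (distance 0.31), Gsta4, a glutathione transferase (0.36), Jag1, a Notch ligand (0.37), Ptgs2, which encodes cyclooxygenase 2 (0.41), and Clec4d, a myeloid lectin (0.45). No gene came within 0.1 of Eid3 and 8 came within 0.5. Slitrk6 read 478, 704 and 698 units and Gsta4 read 2445, 3447 and 3390 units in the order control, SEMA3E and SEMA3E with IgG, so their value with IgG was slightly below that with SEMA3E alone. Jag1 (1495, 1783 and 2324 units) and Ptgs2 (269, 329 and 371 units) shared the order of Eid3, highest with IgG. Clec4d read 104 units in control medium and 133 units in both of the other arrays.

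Within a distance of 0.1 of Cited2 there were 12 genes, and within 0.5 there were 12233 of 12264, since its own differences are small. The nearest were Slc13a3, a dicarboxylate transporter (0.04), Pvalb, the parvalbumin of proprioceptive neurons (0.04), the histone gene H3c7 (0.06), Cp, which encodes ceruloplasmin (0.06), and Ctla2b, related to cysteine protease inhibitors (0.06). Pvalb read 367, 282 and 280 units in the order control, SEMA3E and SEMA3E with IgG, and Slc13a3 read 89.3, 68.9 and 68.9 units. Cp read 292 units in control medium and 230 units in each of the others. In these genes, unlike Cited2, the value with IgG was equal to or below the value with SEMA3E alone. H3c7 and Ctla2b belong to families of near-identical copies, so their probe sets can read more than 1 gene. A distance over 3 arrays rests on few values and mostly reflects the size and sign of the difference from control.

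**Figure D3:**
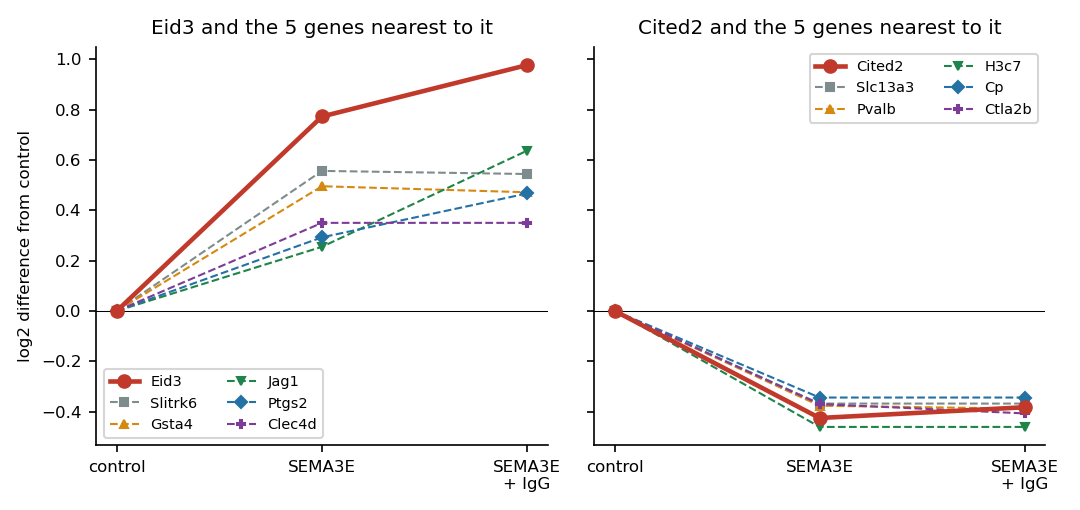
Log2 difference from the control array for Eid3 (left) and Cited2 (right), each as a thick red line with the 5 nearest protein-coding genes as dashed lines, over the 3 arrays (1 per medium). Eid3 lies above its nearest genes at 0.77 and 0.98, whereas the genes nearest to Cited2 run within 0.06 of it in distance.

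The wider pathway was followed in 9 lists, which held 92 distinct genes above the floor. Between SEMA3E and control 7 of them were higher, 9 lower and 76 identical, so that 17.4% differed, against 18.6% of all genes. For SEMA3E with IgG against control the counts were 7, 8 and 77 (16.3% differing, against 19.0%), and for SEMA3E with IgG against SEMA3E alone 7, 6 and 79 (14.1%, against 20.5%). The median of every list was 0 in each comparison, as was that of all genes.

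All 11 other acetyltransferases with a value, among them Kat2a (319 units) and Kat2b (478 units), were identical in the 3 arrays, as were 74.9% of all genes above the floor. Of 10 deacetylases, which remove the acetyl groups, Hdac2 was higher with SEMA3E (0.02) and Hdac1 (−0.05) and Hdac3 (−0.03) lower, where 18.6% of all genes differed in either direction. The probe set annotated to Hdac1 was back at its control value of 377 units with the IgG, from 365 units with SEMA3E alone. The chromosome in its name is not that of the Hdac1 gene, so it may read a copy of the gene elsewhere, which was not tested. Creb1, the factor for which CREBBP is named, read 2103 units in control medium and with SEMA3E and 2217 units with the IgG (log2 difference 0.08), and the other 5 genes of the CREB list were identical.

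HIF subunits and hypoxia targets were listed because CITED2 competes with HIF1A. Of 19 above the floor, 1 was higher with SEMA3E, 4 lower and 14 identical, where 6.21% of all genes were higher and 12.3% lower. Hif1a read 1055 units in every array. Of the other HIF subunits, Arnt read 286 units throughout, and Epas1 read 1455 units in control medium, 1388 with SEMA3E (−0.07) and 1455 with the IgG. Adm, the vasodilator peptide adrenomedullin, read 521 units in control medium and 474 units in each of the others (−0.14). Slc2a1, the main glucose transporter of many cells, read 10029 units in control medium, 9310 units with SEMA3E (−0.11) and 10029 units again with the IgG. The probe set annotated to Pgk1, a glycolytic enzyme, was the 1 that was higher with SEMA3E (0.08), and it equalled control with the IgG. The chromosome in its name is not that of the Pgk1 gene, so it too may read a copy, which was not tested. P4ha1, a collagen prolyl hydroxylase, was 0.01 lower in both arrays with SEMA3E. With the IgG 17 of the 19 equalled control and 2 were lower, where 11.4% of all genes were lower.

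The AP-2 factors with a value above the floor, Tfap2a (341 units) and Tfap2d (52.9 units), were identical in the 3 arrays, and Tfap2b, Tfap2c and Tfap2e lay below it. In the SMC5/6 complex all 8 genes were identical between SEMA3E and control, a comparison in which 18.6% of all genes differed. Nsmce4a, whose product is the usual kleisin subunit that EID3 resembles, read 150 units in every array, and Nsmce2, a SUMO ligase, was 0.03 lower with the IgG (3452 against 3536 units). Among 7 partners of EID1, Ndn (−0.01) and Maged1 (−0.02) were lower in both arrays with SEMA3E. Of all genes 12.3% were lower with SEMA3E and 11.4% with SEMA3E and IgG, each against control. Mdm2 was 0.02 higher with the IgG than in control, and Rb1 read 3024 units throughout.

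SMADs and TGF-beta targets were listed because EID2 and CITED proteins act on SMAD complexes. Of 12, Ccn1, a matricellular protein, was higher with SEMA3E (0.08) and with SEMA3E and IgG (0.12), and Tgfbi lower (−0.02 and −0.20 against control). The other 10 were identical, where 18.6% of all genes differed with SEMA3E and 19.0% with SEMA3E and IgG, each against control. The NRF2 list was included because Eid3 lies inside Txnrd1. Of 17 genes 4 were higher with SEMA3E and 0 lower, where 6.21% of all genes were higher and 12.3% lower. The 4 were Gsta4 (0.50), Nqo1, a quinone reductase (0.28, from 94.3 to 114 units), and the ferritin genes Fth1 (0.08) and Ftl1 (0.02), which have processed copies that their probe sets can also read. Nfe2l2, which encodes NRF2, and its inhibitor gene Keap1 read 168 and 178 units in every array. Gsta4 and Nqo1 kept differences of 0.47 and 0.28 against control with the IgG. That this list leans higher was already known when it was drawn up, so it is no independent support.

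**Figure D4:**
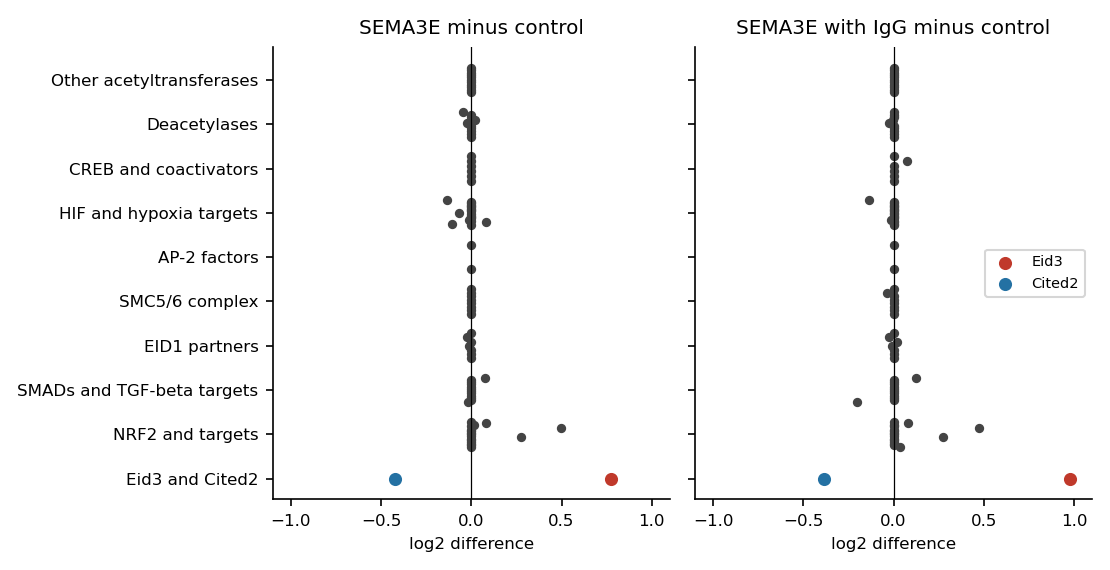
Log2 difference from control for each gene above the floor in the 9 pathway lists (grey points, 1 per gene, spread vertically for view) and for Eid3 (red) and Cited2 (blue), with SEMA3E (left) and SEMA3E with IgG (right). Most points lie at 0, the furthest is Gsta4 in the NRF2 list (0.50 and 0.47), and Eid3 (0.77 and 0.98) lies beyond all of them.

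Markers of the cell types in such cultures were read beside these values, since fewer cells of a type and less RNA per cell cannot be told apart in bulk RNA. All 12 neuronal markers were above the floor. With SEMA3E 7 of them were lower and 0 higher, where 12.3% of all genes above the floor were lower and 6.21% higher. The other 5 were identical between these arrays. Tubb3 went furthest, at 12589 units in control medium and 11305 units in each of the others (−0.16), followed by Syp (−0.12 in both). The summed intensity of the 12 went from 370877 units in control medium to 364908 with SEMA3E and 365408 with SEMA3E and IgG (percent change −1.61 and −1.48). The sum of 4 satellite glial markers was 6470, 6747 and 6344 units in the same order, with Kcnj10 at 399, 337 and 273 units. Fabp7 went the other way with SEMA3E, at 3631, 3970 and 3631 units, and Apoe and Slc1a3 were identical in all 3 arrays. The sum of 5 Schwann cell markers was 138329, 138059 and 137807 units, and that of 4 fibroblast markers 11230, 11227 and 11227 units. Macrophage markers summed to 3788, 4041 and 3961 units over 6 genes, and endothelial markers to 318, 310 and 310 units over 5. Among the macrophage markers Lyz2 read 2171, 2480 and 2348 units and Cd68 read 1087, 1031 and 1087 units. Adgre1 and Aif1 were identical between control and SEMA3E. No marker was listed at 0, but neither was any other probe set, since the lowest value of the series was 6.12 units. The macrophage genes Csf1r and Ptprc and the endothelial gene Tek lay below the floor. Single bright genes make up much of some sums, such as Uchl1 with 205992 units of the neuronal one and Pmp22 with 130696 units of the Schwann cell one in control medium. Kcnj10 was lower than control by more than Cited2 in the array with IgG (log2 difference −0.54 against −0.38). The part of cell composition in the values of Eid3 and Cited2 was not tested.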

How the data were processed

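The authors deposited intensity values of 3 arrays, 1 per medium. They were made with Affymetrix Expression Console, as the submitters' processing notes list it. RNA was labelled with biotin using the WT Pico kit, per the labels' protocols. How probes were summarised, how arrays were normalized, and the version and genome build were not stated in the sources at hand. Scanner files were not used here.

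From these, log2(value + 1) and differences between arrays were computed in Python 3.11.15 with pandas 2.3.3, and the brightest probe set per gene was kept. Probe sets were named by the platform's annotation: 30604 have a single symbol, 2146 several and 33206 none, and 827 symbols were updated through a RefSeq table (GRCm38.p6), used for names and for which genes neighbour each other. Values within 1e-09 on the log2 scale counted as identical. With 1 array per group no test was possible; the small number of arrays limits how precise any value is.

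The members, lists and thresholds were chosen with earlier results of these data known. Named are all 9 members, in each list the 2 genes furthest from control per SEMA3E medium, Txnrd1, Hif1a and the 5 nearest profiles. Neighbours of a member are named where they lie above the floor. Genes named beyond this rule (Kat2a, Kat2b, Rb1, Tfap2a, Tfap2d, Nsmce4a, Pgk1, Epas1, Arnt, Nfe2l2, Keap1, Fth1, Ftl1 and the cell markers) were chosen after their values were seen. Alternatives were an added constant of 16, median centring, cyclic loess (limma 3.58.1), quantile normalization, the mean of probe sets and no floor. The counting and distance steps were tested on simulated data.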

Additional observations from a re-analysis of the deposited data

How the results depend on the processing

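The genes that differed (Eid3, Cited2 and Crebbp) kept their direction, and no difference of the 9 genes moved by more than 0.1 on the log2 scale, under each rescaling tried (132 of 132 values; Cited4, below the floor, had none under loess). Part of this was fixed in advance. Each of the 9 genes has 1 probe set, so the mean of probe sets could not change a value. An added constant likewise leaves identical values identical. The other rescalings were small. The median difference from control over all genes was 0.006 after centring and 0 after cyclic loess. After quantile normalization it was −0.003 with SEMA3E and −0.004 with SEMA3E and IgG. There was thus little room for a move past 0.1, a limit wider than the whole difference of Crebbp. Over all settings Eid3 ranged from 0.73 to 0.78 for SEMA3E against control and from 0.93 to 0.98 with IgG against control. Cited2 ranged from −0.43 to −0.42 and from −0.39 to −0.38 in the same order. The small differences between the arrays with and without IgG ranged from 0.20 to 0.21 for Eid3, from 0.04 to 0.04 for Cited2 and from 0.01 to 0.03 for Crebbp.

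The number of genes that differ at all depends on the scaling by construction, since a shift of an array parts identical values. Between SEMA3E and control it went from 2 of 8 to 8 after median centring, 4 after cyclic loess and 8 after quantile normalization. Between SEMA3E with IgG and control it went from 3 to 8 after centring, 4 after cyclic loess and 8 after quantile normalization, and between the arrays with and without IgG from 3 to 8 after quantile normalization. No paired analysis was possible because each medium has 1 array. The labels give no replicates, so the spread between cultures is unknown for every value.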
